A study of Homo sapiens with 6 samples.

Results

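The UGT2B genes encode UDP-glucuronosyltransferases, enzymes of the endoplasmic reticulum that attach glucuronic acid from UDP-glucuronic acid to steroids, bile acids, drugs and other lipophilic compounds. The conjugates are water soluble, no longer bind the steroid receptors and leave the cell through export pumps. In androgen target tissues such as the prostate, UGT2B15 and UGT2B17 are the main enzymes that conjugate dihydrotestosterone, testosterone and their metabolites, whereas most other members are best known from the liver. The 7 genes described here, UGT2B4, UGT2B7, UGT2B10, UGT2B11, UGT2B15, UGT2B17 and UGT2B28, were selected by name, and selected because their reads were already known to differ between the libraries of this study. They are 7 of 61279 genes with matched transcripts, and the 5 UGT2B pseudogenes were kept apart. Since the contrast between the labels chose them, their difference between the labels is given as a description with no test.

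The libraries are labelled as RNA of T47D, a line of hormone receptor–positive breast cancer cells recorded with a wild-type (WT) genotype and grown in serum-containing medium. The paper describes T47D as PIK3CA-mutant, which the recorded genotype does not state. The cells had been treated for 24 h with the solvent DMSO or with 4 µM MI-503, an inhibitor of the binding between menin and the histone methyltransferase MLL1, in 3 independent experiments each. All 6 libraries are labelled as this cell line, and the comparison sets the 3 with the DMSO label against the 3 with the MI-503 label. Library totals were between 17404736 and 22168525 estimated reads, with a mitochondrial share of 1.37% to 7.12% for the DMSO label and 2.81% to 5.29% for the MI-503 label. KMT2A, the gene of MLL1, averaged 87.5 ± 34.2 CPM (SD, n = 3, counts brought to a common library size) under the DMSO label and 103 ± 34.4 CPM under the MI-503 label. It did not pass the test (edgeR quasi-likelihood test, adjusted p = 0.511). MEN1, the gene of menin, was higher with the MI-503 label, at 142 ± 12.2 against 58.7 ± 14.5 CPM (log2 fold change 1.27, edgeR adjusted p = 0.000265). The inhibitor acts on the binding of the proteins, so these levels do not check the labels.

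The labelled cell type was checked against its markers, and the libraries labelled DMSO went against it. Of 10 luminal breast markers, 9 passed the filter on low counts, and all 9 were higher with the MI-503 label. The summed level of this list was 45.23 to 56.87 CPM with the DMSO label and 8689 to 11180 CPM with the MI-503 label. ESR1, the estrogen receptor, was at 0, 0.194 and 0 CPM in the libraries labelled DMSO, and GATA3 was at 0, 0.581 and 0 CPM. Of 10 prostate markers, all 10 were lower with the MI-503 label, and their summed level was 6671 to 8048 CPM against 139.3 to 143.0 CPM. At the same threshold, an adjusted p under 0.05 at any fold, 31.7% of all genes tested were higher and 31.2% lower. KLK3, the gene of prostate-specific antigen, lay between 3670 and 3760 CPM with the DMSO label, whereas the MI-503 label held no KLK3 read. Every library of a label shows this pattern, so no library can be left out to remove it, and an effect of MI-503 cannot be told apart from a difference between the cells of the labels. Because these are bulk samples, fewer cells of a type and less RNA per cell cannot be told apart either.

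Markers of other tissues that express UGT2B genes were near 0 in the libraries labelled DMSO. The summed level of 10 liver markers was 2.599 to 2.713 CPM there, with no reads on HNF4A or APOB and 12 reads in all on ALB. With the MI-503 label the liver sum was 251.4 to 373.9 CPM, of which SERPINA1 made 306 ± 62.5 CPM (SD, n = 3). The 7 kidney markers summed to 1.461 to 1.994 CPM and the 7 intestine markers to 2.477 to 3.154 CPM with the DMSO label. With the MI-503 label these sums were 0.5350 to 1.220 CPM and 0.1686 to 0.3830 CPM.

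The members are close paralogues that lie side by side on chromosome 4, and this sets how far their reads can be told apart. In GENCODE release 44 coordinates of GRCh38 they run from UGT2B17 at chr4:68537173-68576413 and UGT2B15 at chr4:68646597-68670652, both on the minus strand, through UGT2B10 at chr4:68815994-68832023 and UGT2B7 at chr4:69051363-69112987 on the plus strand. UGT2B11 follows at chr4:69199951-69214748 on the minus strand, UGT2B28 at chr4:69280475-69295050 on the plus strand, and UGT2B4 at chr4:69480165-69526014 on the minus strand. Over the 21 pairs of coding sequences, each 1587 to 1593 bases long, identity ranged from 83.7% to 97.0% with a median of 89.1%. UGT2B11 and UGT2B28 shared 97.0% of their coding bases and UGT2B15 and UGT2B17 shared 96.5%, with a longest identical run of 110 and 199 bases. UGT2B10 stood next to the first pair, at 94.8% identity with UGT2B11, whereas UGT2B15 and UGT2B17 were at most 85.4% identical to any other member.

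**Figure D1:**
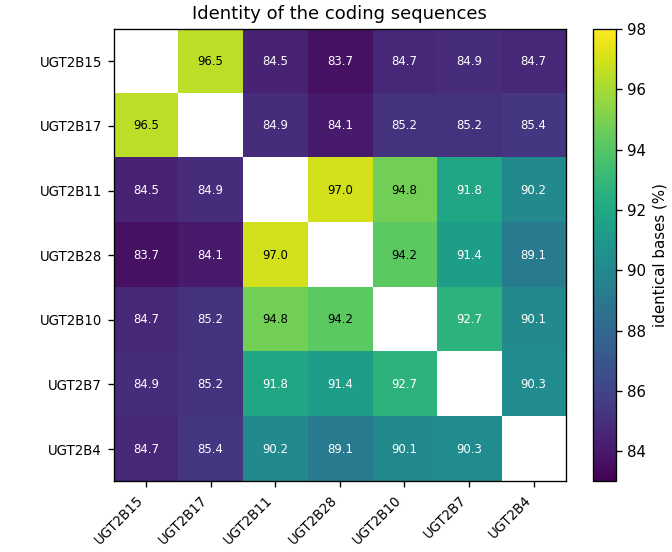
Percentage of identical bases in pairwise alignments of the 7 UGT2B coding sequences, in rows and columns; the colour scale runs over the same percentages. UGT2B15 with UGT2B17 (96.5%) and UGT2B11 with UGT2B28 (97.0%) are the closest pairs, and UGT2B10 is nearer to the second of these pairs than to the first.

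The stretches that separate the members of each pair are shown because only reads that cover such bases can be assigned to one of them. For each pair the window of 100 coding bases with the most differences is given 5′ to 3′ from the GENCODE transcripts, with differing bases in capitals. UGT2B15 and UGT2B17 differ at 12 bases within coding positions 361 to 460, in exon 1 of UGT2B15 (chr4:68670159-68670258, minus strand) and exon 2 of UGT2B17 (chr4:68568025-68568124, minus strand).
UGT2B15: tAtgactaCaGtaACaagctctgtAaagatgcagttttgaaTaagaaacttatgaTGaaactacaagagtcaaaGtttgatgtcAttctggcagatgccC
UGT2B17: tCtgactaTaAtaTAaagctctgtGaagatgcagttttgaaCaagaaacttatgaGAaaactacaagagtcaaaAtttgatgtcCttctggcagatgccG
UGT2B11 and UGT2B28 differ at 7 bases within coding positions 1 to 100, in exon 1 of UGT2B11 (chr4:69214623-69214722, minus strand) and exon 1 of UGT2B28 (chr4:69280501-69280600, plus strand).
UGT2B11: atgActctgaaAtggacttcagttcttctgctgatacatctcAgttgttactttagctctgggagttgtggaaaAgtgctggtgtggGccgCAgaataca
UGT2B28: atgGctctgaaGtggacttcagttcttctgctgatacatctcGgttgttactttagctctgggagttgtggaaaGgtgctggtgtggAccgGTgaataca

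Stretches of 31 bases found in no other gene made up 86.6% of the main UGT2B4 transcript, 76.5% of UGT2B7, 62.9% of UGT2B10, 60.8% of UGT2B15 and 65.1% of UGT2B17. They made up only 43.0% of UGT2B28 and 37.5% of UGT2B11, where 35.6% of the stretches were shared with UGT2B28 and 33.0% with the pseudogene UGT2B25P. The estimated reads show where reads were divided, because a read split between genes gives each a fraction. UGT2B4, UGT2B7 and UGT2B10 had whole numbers of reads in every library, within 0.01 read. UGT2B15 and UGT2B17 did not singly, but their sum was whole in every library, at 3930, 5293 and 5919 reads with the DMSO label. Reads were therefore divided between these genes, and no fraction was left between them and others. Whole numbers do not exclude shared reads that the estimate gave entirely to one gene. UGT2B11 and UGT2B28 summed to 806.988, 2615.95 and 7557.86 reads, each missing a whole number by at most 0.14 read, and still by up to 0.085 read with UGT2B25P added. Some reads were therefore also divided between this pair and other genes, and how many was not measured. How each pair's reads were divided between its members is thus an estimate.

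The 250 bases before the start site were available for 4 members from RefSeq on GRCh38.p14, and not for UGT2B17, UGT2B28 or UGT2B4. They are printed because members of the family differed in level and in spread, and capitals mark 2 searched motifs on either strand. These were the FOXA motif TGTTTAC and the estrogen receptor half-site AGGTCA. The windows are UGT2B15 at chr4:68670653-68670902 (minus strand), UGT2B10 at chr4:68815744-68815993 (plus strand), UGT2B11 at chr4:69214749-69214998 (minus strand) and UGT2B7 at chr4:69096224-69096473 (plus strand). The UGT2B7 window lies inside the gene span given above, before a later start, whereas the other 3 windows adjoin the start of their gene span.
UGT2B15: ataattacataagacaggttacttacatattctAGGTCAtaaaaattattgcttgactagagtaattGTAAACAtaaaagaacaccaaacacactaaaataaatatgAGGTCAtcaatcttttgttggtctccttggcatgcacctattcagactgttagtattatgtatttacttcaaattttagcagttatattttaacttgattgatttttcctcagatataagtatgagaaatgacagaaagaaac
UGT2B10: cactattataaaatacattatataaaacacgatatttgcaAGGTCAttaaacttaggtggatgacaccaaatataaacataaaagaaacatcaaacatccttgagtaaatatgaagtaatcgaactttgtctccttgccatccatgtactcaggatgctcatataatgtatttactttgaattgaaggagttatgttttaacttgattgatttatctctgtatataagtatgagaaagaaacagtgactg
UGT2B11: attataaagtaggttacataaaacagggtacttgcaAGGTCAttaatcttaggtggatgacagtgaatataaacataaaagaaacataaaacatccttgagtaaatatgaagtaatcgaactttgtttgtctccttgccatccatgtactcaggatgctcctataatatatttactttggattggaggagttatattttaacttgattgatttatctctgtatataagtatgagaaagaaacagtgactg
UGT2B7: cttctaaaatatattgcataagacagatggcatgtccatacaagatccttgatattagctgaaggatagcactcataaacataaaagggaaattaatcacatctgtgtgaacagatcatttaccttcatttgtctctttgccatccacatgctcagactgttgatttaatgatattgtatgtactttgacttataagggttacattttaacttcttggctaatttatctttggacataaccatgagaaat
UGT2B15 held a FOXA motif at -183 to -177 from the start, on the opposite strand. The FOXA motif was present in 2.98% of 35116 promoters of the same length. The estrogen receptor half-site, present in 12.1% of promoters, stood in UGT2B15, UGT2B10 and UGT2B11, and none of these motifs was found in the UGT2B7 window. The letters TATAAA, in 10.7% of promoters, stood in UGT2B10 and UGT2B11, whereas the octamer ATTTGCAT (1.63% of promoters) was in none of the 4. No match overlapped that of another motif, and a match is a description of the sequence and not of binding. The UGT2B10 and UGT2B11 windows were 90.2% identical with a longest identical run of 55 bases, UGT2B11 and UGT2B15 were 70.0% identical, and UGT2B7 was 57.6% to 61.5% identical to the other 3.

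All 7 members had reads in each library labelled DMSO and almost none with the MI-503 label. Together they took 4845, 8262 and 13953 reads in the libraries labelled DMSO and 4, 2 and 1 in those labelled MI-503. In CPM, scaled by the trimmed mean of M-values (TMM), their sum was 219.1, 400.0 and 636.1 with the DMSO label and 0.1950, 0.1046 and 0.05940 with the MI-503 label. The ratio of pooled reads was 3374, with an exact 95% counting interval of 1637 to 8392, and no library labelled MI-503 came near any labelled DMSO. Of the 7 members 6 passed the filter on low counts, UGT2B7 being the exception, and all 6 were lower with the MI-503 label by an adjusted p under 0.05 together with a log2 fold change under -2. Of all 16442 genes tested 11.7% were lower by the same thresholds. As the members were selected by this contrast, and passed the filter through the libraries labelled DMSO alone, nothing is read from that count.

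UGT2B15, which conjugates dihydrotestosterone and its metabolites, was at 92.5, 141 and 162 CPM in the libraries labelled DMSO. With the MI-503 label it was at 0.0488, 0 and 0 CPM, a single read in replicate 1. The groups lay far apart, with a ratio of pooled reads of 7432 and a counting interval of 1334 to 293600, which is wide because it rests on that read. UGT2B17, which conjugates testosterone and dihydrotestosterone, was at 85.3, 115 and 108 CPM with the DMSO label and had no reads with the MI-503 label. Set against a floor of 3 reads over the group, UGT2B17 was at least 1928-fold lower with the MI-503 label. Among replicates labelled DMSO their means were 132 ± 35.7 and 103 ± 15.5 CPM (SD, n = 3 each).

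UGT2B11, which has few known substrates, was at 30.0, 102 and 266 CPM with the DMSO label. In the libraries labelled MI-503 it was at 0.146, 0.0523 and 0.0594 CPM, 5 reads in all, and it was the only member with a read in each of them. The ratio was 1501 with a counting interval of 642.8 to 4623, and the groups did not overlap although the DMSO level spread widely, at 133 ± 121 CPM (SD, n = 3). UGT2B28, its closest paralogue, was at 6.48, 24.8 and 78.7 CPM with the DMSO label. UGT2B28 had no reads with the MI-503 label and was at least 693.2-fold lower there. UGT2B10, known for conjugating nicotine and other amines at nitrogen, was at 4.07, 14.0 and 20.01 CPM with the DMSO label and at 0, 0.0523 and 0 CPM with the MI-503 label. Its ratio was 713.9 with a counting interval of 127.8 to 28230. In UGT2B11, UGT2B28 and UGT2B10 alike, replicate 1 was the lowest and replicate 3 the highest library labelled DMSO.

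The remaining 2 members were close to the limit of detection. UGT2B4, which conjugates bile acids, was at 0.724, 2.90 and 0.957 CPM with the DMSO label, 97 reads in all, and had none with the MI-503 label. It was at least 28.22-fold lower with the MI-503 label and, as UGT2B17 was, highest in DMSO replicate 2. UGT2B7, the main morphine-conjugating enzyme, had 2, 4 and 16 reads with the DMSO label, or 0.0905, 0.194 and 0.729 CPM. It had no reads with the MI-503 label, a difference of at least 6.400-fold that rested mostly on DMSO replicate 3. In replicate 1 both UGT2B7 reads were assigned to a transcript with no defined coding sequence, and in replicates 2 and 3 all reads were on the main coding transcript.

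**Figure D2:**
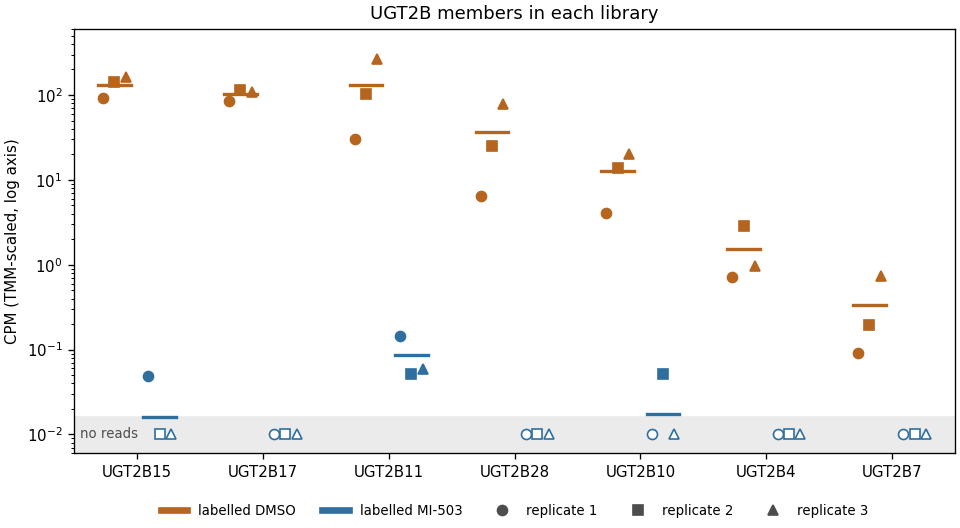
CPM of each UGT2B member (TMM-scaled, log axis) in every library, by label and replicate; bars are means, and open symbols in the grey band are libraries without reads. UGT2B17, UGT2B28, UGT2B4 and UGT2B7 had no reads with the MI-503 label, and UGT2B11, UGT2B28 and UGT2B10 spread more among the DMSO replicates than UGT2B15 and UGT2B17.

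Levels were compared between members as TPM, a scale on which reads are divided by transcript length before they are scaled to the library. Ordered by median TPM in the libraries labelled DMSO, UGT2B15 (72.1 to 116 TPM), UGT2B11 (26.5 to 230 TPM) and UGT2B17 (68.9 to 87.0 TPM) came first. UGT2B28 (6.0 to 66.2 TPM) and UGT2B10 (2.84 to 11.9 TPM) followed, and UGT2B4 (0.569 to 2.14 TPM) and UGT2B7 (0.162 to 0.598 TPM) were last. The ranges did not overlap between UGT2B17 and UGT2B28 or between UGT2B10 and UGT2B4, and all other neighbours in this order overlapped. The order of the leading 3 therefore depended on the library. UGT2B11 had 0.367 times the TPM of UGT2B15 in DMSO replicate 1, 0.849 times in replicate 2 and 1.97 times in replicate 3.

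The summed TPM of the family was 177.2, 309.6 and 505.8 in the libraries labelled DMSO, and its make-up changed from library to library. UGT2B15 and UGT2B17 together made up 79.6%, 61.3% and 38.9% of it, and UGT2B11 and UGT2B28 together 18.3%, 35.1% and 58.5%. The TPM shares depend somewhat on how reads were divided within a pair, since lengths differ, whereas sums of CPM do not. On the CPM scale the UGT2B15 and UGT2B17 sum was 178, 256 and 270, a highest-to-lowest ratio of 1.52. The UGT2B11 and UGT2B28 sum was 36.50, 126.6 and 344.5 CPM, a ratio of 9.44. Within a pair the proportions varied less, at 1.05 to 1.45 for UGT2B15 over UGT2B17 and 3.47 to 4.41 for UGT2B11 over UGT2B28 in TPM.

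**Figure D3:**
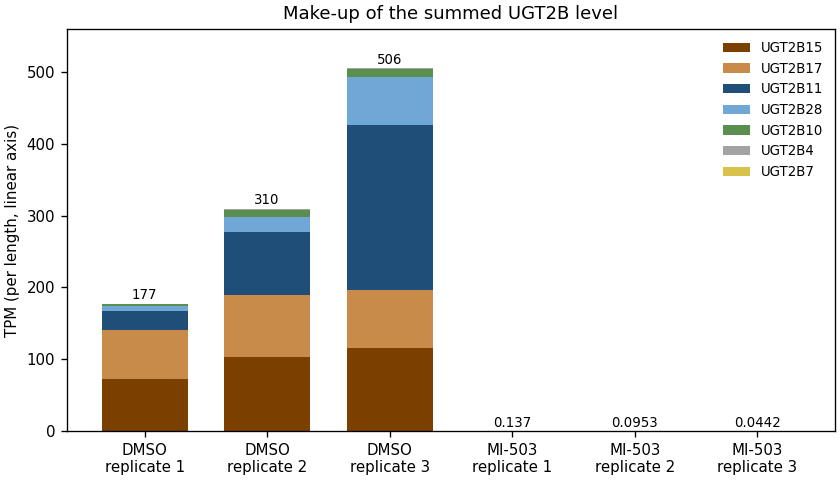
Summed TPM of the 7 UGT2B members in each library, on a linear axis, stacked by member with the total above each bar. The totals with the DMSO label are 177.2, 309.6 and 505.8 TPM, and the share of UGT2B11 and UGT2B28 goes from 18.3% in replicate 1 to 58.5% in replicate 3, while the libraries labelled MI-503 are at most 0.1370 TPM.

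The spread among libraries that share the DMSO label is another measure than the contrast that selected the members, and it was large for part of the family. It is not independent of that selection, since the same DMSO values enter both. Among 9958 genes that averaged 10 CPM or more in these libraries, of which 9569 were protein-coding, the highest library exceeded the lowest by a median of 1.34 times, and the 95th percentile was 2.24. UGT2B28 reached 12.2 and UGT2B11 8.85, ranks 2 and 6 among the protein-coding genes. Reads were divided between this pair, so their ranks are not separate observations. UGT2B10, with 4.92, was at rank 30. In contrast, UGT2B15 (1.75) and UGT2B17 (1.35) were not unusual, since 14.7% and 48.4% of the genes varied at least as much. With 3 libraries this is a description, and replicates have no order.

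Other measures were compared over the same libraries, and some but not all had their extremes in the same libraries as UGT2B11. Androgen-responsive genes differed, with KLK3 nearly level at a highest-to-lowest ratio of 1.02. TMPRSS2, at 2.50, had its highest value in replicate 1 and its lowest in replicate 3. FKBP5, at 2.40, was highest in replicate 3 and lowest in replicate 1, as UGT2B11 was. UGDH, which makes the UDP-glucuronic acid used by all members, was at 140, 136 and 198 CPM. Its ratio of 1.45 was not unusual, since 35.3% of the genes varied at least as much. Mitochondrial genes took 3.75%, 1.37% and 7.12% of the reads in DMSO replicates 1 to 3, the highest share falling on the library with the most UGT2B11. The lowest share fell on replicate 2, whereas UGT2B11 was lowest in replicate 1. The part of any of these in the spread of the members was not tested.

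The deposited transcripts allow a view of isoforms. UGT2B15 and UGT2B17 had 1 transcript each. For UGT2B11 a retained-intron transcript took 1.94%, 2.88% and 3.28% of the gene's reads in the libraries labelled DMSO, and the rest fell on the main coding transcript. A second coding transcript took 16.4%, 12.1% and 7.47% of UGT2B10 reads and 11.0%, 3.59% and 5.38% of UGT2B28 reads. All UGT2B4 reads were on 1 of its 6 transcripts. The main coding transcript thus led in each library labelled DMSO for every member but UGT2B7.

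The pseudogenes of the family stayed low and were also without reads in the libraries labelled MI-503. UGT2B24P was at 0.317, 0.871 and 3.24 CPM with the DMSO label, lowest in replicate 1 and highest in replicate 3 as UGT2B11 and UGT2B28 were. UGT2B28 shared 27.6% of its stretches of 31 bases with this pseudogene, but UGT2B24P had a whole number of reads in every library, with 7, 18 and 71 under the DMSO label. UGT2B25P, UGT2B26P, UGT2B27P and UGT2B29P were each at most 1.32 CPM in any library.

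Genes that lie among and around the members did not share their pattern as a group. Within 1 Mb of the outermost members there were 31 other protein-coding genes, of which 5 passed the filter on low counts. CENPC, a centromere protein gene, was higher with the MI-503 label, from 12.1 ± 0.0355 to 21.5 ± 2.36 CPM (SD, n = 3 each; log2 fold change 0.82 with a standard error of 0.18; edgeR quasi-likelihood test, adjusted p = 0.00305). TMPRSS11E, a serine protease gene next to UGT2B17, was lower, from 2.36 ± 0.949 to 0.164 ± 0.151 CPM (log2 fold change -3.82, standard error 0.74, edgeR adjusted p = 0.00128). ODAM, an enamel-associated gene, had 75 reads with the DMSO label and none with the MI-503 label (edgeR adjusted p = 0.000282). AMTN, which did not pass the filter, had 45 reads with the DMSO label and 1 with the MI-503 label. The broadly expressed YTHDC1 and UBA6 did not pass the test. YTHDC1, an RNA-binding protein gene on the other side of TMPRSS11E from UGT2B17, was at 80.1 ± 2.15 and 71.2 ± 5.61 CPM (log2 fold change -0.17, standard error 0.14, edgeR adjusted p = 0.318). The related UGT2A3, which lies between UGT2B10 and UGT2B7, had no reads in any library, and UGT2A1 had 1 read in each library labelled DMSO.

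**Figure D4:**
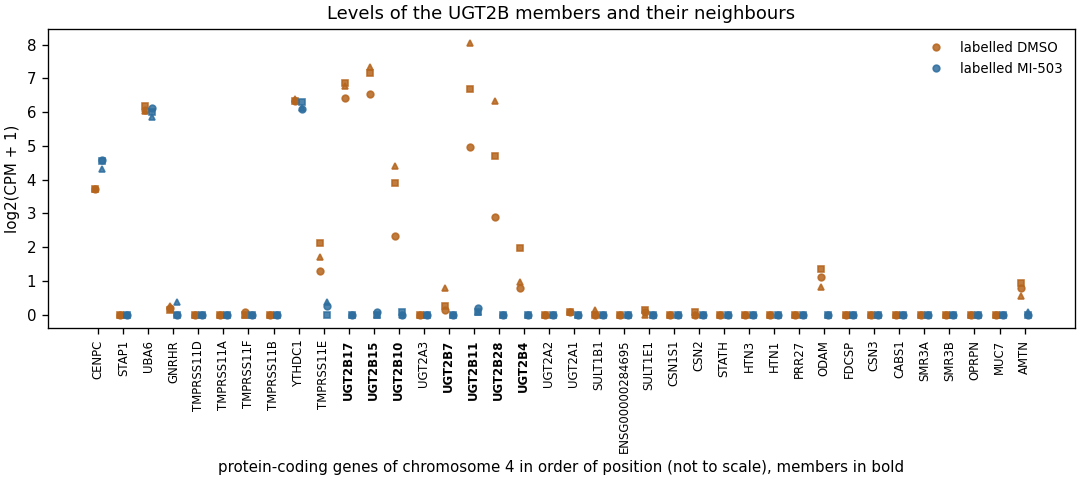
Levels, as log2(CPM + 1), of the 7 UGT2B members (bold) and 31 other protein-coding genes within 1 Mb, in order along chromosome 4 and not to scale; circles, squares and triangles are replicates 1, 2 and 3 of each label. The members are at or near 0 with the MI-503 label, while CENPC, UBA6 and YTHDC1, which come before UGT2B17 in this order, have reads with both labels. TMPRSS11E and ODAM are lower with the MI-503 label.

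The 5 protein-coding genes outside the UGT family whose pattern was nearest to the summed members, by Euclidean distance of log2(CPM + 1) over the 6 libraries, were KLK2 (1.05), GPX1 (1.46), HOXB13 (1.65), MAOA (1.73) and FOLH1 (1.83). KLK2, HOXB13 and FOLH1 are on the prostate marker list. KLK2, a kallikrein gene, was at 352, 322 and 392 CPM with the DMSO label and had 1 read in all with the MI-503 label. GPX1, which encodes a glutathione peroxidase, was at 185, 281 and 255 CPM with the DMSO label and had no reads with the MI-503 label. The distance is driven by the difference between the labels, and these genes varied less among the DMSO replicates than the sum of the members, which was 418.4 ± 209.1 CPM (SD, n = 3).

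The genes around the members were taken from 6 lists, for other UGT genes, cofactor supply and hydrolysis, steroid inactivation, androgen supply, glucuronide efflux and regulators. Of 78 genes listed 46 passed the filter. At an adjusted p under 0.05 and any fold, 18 were higher and 18 lower with the MI-503 label (39.1% each way), against 31.7% higher and 31.2% lower of all genes tested. The median log2 fold change was 0.01 over the lists, and -0.0044 over all genes tested. The lists as a whole thus held equal counts on both sides, and each group below held genes of both directions except androgen supply.

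Steps that supply the cofactor differed along the route. UGDH, which oxidises UDP-glucose to UDP-glucuronic acid, was lower with the MI-503 label, at 34.4 ± 6.22 against 158 ± 34.8 CPM (SD, n = 3 each; log2 fold change -2.20, standard error 0.21, edgeR adjusted p = 1.29e-05). PGM2, a phosphoglucomutase (log2 fold change -1.51, adjusted p = 3.87e-05), and UXS1, which turns UDP-glucuronic acid into UDP-xylose (-0.97, adjusted p = 0.00107), were lower too. In contrast, UGP2, which makes UDP-glucose, was higher, at 84.0 ± 5.66 against 52.1 ± 5.24 CPM (log2 fold change 0.69, adjusted p = 0.00267). SLC35D1, a transporter that carries UDP-glucuronic acid into the endoplasmic reticulum, was without a read in the 3 DMSO libraries and averaged 21.4 ± 1.28 CPM in the 3 MI-503 libraries (SD). It was at least 459.9-fold higher with the MI-503 label (edgeR adjusted p = 6.64e-07), so the libraries with UGT2B reads were those without reads on this transporter. GUSB, the lysosomal enzyme that removes glucuronic acid from conjugates, was at 155 ± 2.70 against 99.4 ± 6.71 CPM (log2 fold change 0.64, adjusted p = 0.0022). NUDT14, which hydrolyses UDP-glucose, was higher (0.57, adjusted p = 0.0163), a call that was lost when reads were summed over protein-coding transcripts only (adjusted p = 0.701). PGM1 (-0.17, adjusted p = 0.551) and SLC35D2 (-0.36, adjusted p = 0.177) did not pass.

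Of 15 other UGT genes 4 passed the filter, of which 1 was higher and 3 were lower. UGT8, a ceramide galactosyltransferase, was at 7.33, 7.07 and 7.70 CPM with the DMSO label and had 1 read with the MI-503 label (edgeR adjusted p = 2.94e-06). UGT1A3 (162 reads with the DMSO label, adjusted p = 0.000633) and UGT1A6 (83 reads, adjusted p = 0.00134) were lower, both with no reads under the MI-503 label, as was UGT1A1 with 82 reads, which did not pass the filter. The UGT1A genes share their 3′ exons, so the division of reads among them is uncertain. All 3 were highest in DMSO replicate 3, with UGT1A3 at 1.31, 1.23 and 4.95 CPM. UGT3A2, which uses other sugar donors than UDP-glucuronic acid, was in the opposite direction, with 3 reads under the DMSO label and 430 under the MI-503 label (adjusted p = 4e-06).

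Genes on the steroid inactivation list were divided, with 6 higher, 4 lower and 4 not past the test among the 14 of 20 that passed the filter. The list also holds STS, counted among the 4 lower, which works against inactivation by sulfation. STS, which releases steroids from their sulfates, was at 1.30 ± 0.860 CPM with the MI-503 label against 12.4 ± 0.810 CPM with the DMSO label (SD, n = 3 each; log2 fold change -3.23, or -3.90 without MI-503 replicate 2, edgeR adjusted p = 0.000102), and HSD17B4 was lower by less (-0.65, adjusted p = 0.00375). HSD17B11, a dehydrogenase of androgen metabolites, had 428 reads with the DMSO label and 0 with the MI-503 label (adjusted p = 1.66e-05). PAPSS2, which makes the sulfate donor for steroid sulfation, was the largest of the 6 in the other direction, at 39.8 ± 4.14 against 0.205 ± 0.160 CPM (log2 fold change 7.58, or 8.37 without DMSO replicate 2, adjusted p = 1.58e-07). HSD17B8 (1.04, adjusted p = 0.000496), HSD17B14 (1.41, adjusted p = 0.0072), AKR1C1 (2.43, adjusted p = 0.00168) and AKR1C2 (1.87, adjusted p = 0.00662) were higher, the last 2 being near-identical genes whose reads may have been divided wrongly. SULT2B1, a sulfotransferase of hydroxysteroids, was higher (0.49, adjusted p = 0.0222), which was lost without DMSO replicate 2 (adjusted p = 0.055), without MI-503 replicate 2 (adjusted p = 0.0805) and with upper-quartile scaling (adjusted p = 0.0557).

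For androgen supply, 3 of 10 genes passed the filter and all 3 were lower with the MI-503 label. SRD5A1, which reduces testosterone to dihydrotestosterone, was at 22.2 ± 2.58 against 51.9 ± 11.4 CPM (SD, n = 3 each; log2 fold change -1.22, edgeR adjusted p = 0.00043). SRD5A3, better known for dolichol synthesis, was at 19.0 ± 2.62 against 57.1 ± 2.70 CPM (-1.59, adjusted p = 2.75e-05). CYP11A1, which starts steroid synthesis from cholesterol, had 716 reads with the DMSO label and 1 with the MI-503 label (adjusted p = 1.08e-06). HSD3B2, HSD17B3 and CYP19A1 had no reads in any library, and CYP17A1 had none with the DMSO label.

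Pumps that export conjugates were divided between the labels, with 3 higher and 2 lower among the 5 of 7 that passed the filter. ABCC4, a pump for steroid conjugates and other anions, was at 335, 235 and 176 CPM with the DMSO label and had 2 reads with the MI-503 label (edgeR adjusted p = 6.35e-08). Its ratio of pooled reads was 7033 with a counting interval of 1947 to 58080. ABCC1 was also lower, at 64.8 ± 9.07 against 238 ± 27.2 CPM (log2 fold change -1.88, adjusted p = 8.4e-06). ABCC3, known for glucuronide export in the liver, was at 23.8, 18.1 and 15.6 CPM with the MI-503 label against 0, 0.0484 and 0.593 CPM (6.43, adjusted p = 3.26e-05). Its log2 fold change was 9.34 without DMSO replicate 3, a value that rests on the 1 ABCC3 read left under the DMSO label and on the added prior count. ABCC5 (1.60, adjusted p = 0.00017) and ABCC6 (2.55, adjusted p = 1.1e-05) were higher as well, and ABCC2 and ABCG2 did not pass the filter.

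Among regulators known to act on UGT2B genes, 4 were higher, 3 lower and 4 not past the test. ESR1, under which UGT2B15 is induced in breast cancer cells, was at 248 ± 43.6 CPM with the MI-503 label against 0.0645 ± 0.112 CPM with the DMSO label (SD, n = 3 each; log2 fold change 11.83, standard error 0.49, edgeR adjusted p = 6.17e-08). All 4 ESR1 reads of the DMSO label were in replicate 2, and without it the log2 fold change was 15.28. With no ESR1 read left under the DMSO label, that value depends on the added prior count and is no measured fold. FOXA1, a pioneer factor of steroid receptor binding, was at 472 ± 89.5 and 474 ± 101 CPM, a log2 fold change of -0.01 with a standard error of 0.21 (adjusted p = 0.98). FOXA1 thus had reads in quantity under both labels, unlike ESR1. HNF4A, a liver factor, had no reads in any library. PBX2 (1.86, adjusted p = 1.38e-05) and its partner PKNOX1 (-0.87, adjusted p = 0.00131) differed in opposite directions. AHR, the aryl hydrocarbon receptor, was at 35.9 ± 0.953 against 0.0797 ± 0.101 CPM (8.74, adjusted p = 2.33e-07). Its fold change was 10.27 on the log2 scale without DMSO replicate 2, which leaves 1 AHR read under the DMSO label, so that value also depends on the prior count. NR1I3, a drug-sensing nuclear receptor, was higher (1.43, adjusted p = 0.0297) on 58 reads against 24, which was lost without DMSO replicate 1 (adjusted p = 0.0947), DMSO replicate 2 (0.113) or MI-503 replicate 1 (0.127), with the replicate number as a block (0.0917), without a filter (0.0635), with counts rebuilt from TPM (0.0529) and in DESeq2 (0.0968).

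**Figure D5:**
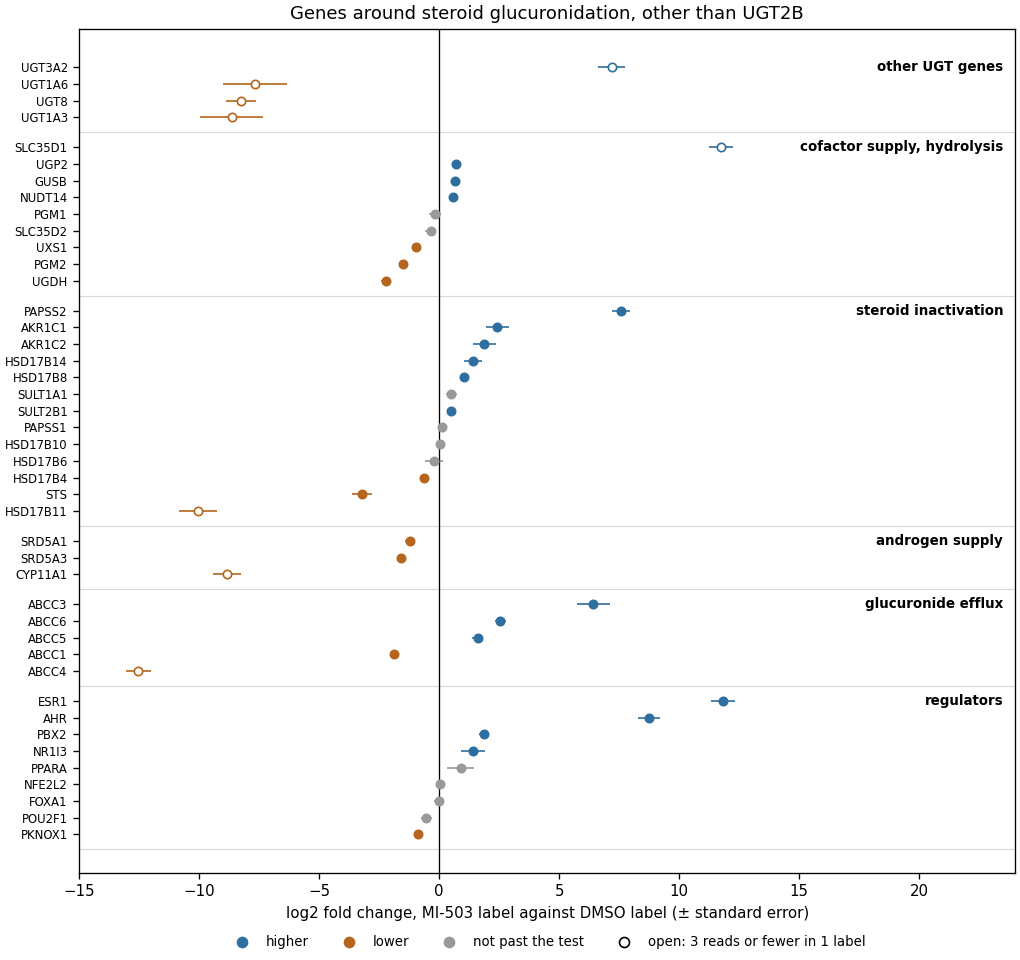
Log2 fold change of the MI-503 label against the DMSO label for 43 of the 46 tested genes of the 6 lists, with its standard error; blue is higher, orange lower and grey not past an adjusted p of 0.05. Open symbols have 3 reads or fewer with one label, so their fitted fold depends on the added prior count; cofactor supply, steroid inactivation, efflux and regulators each hold genes on both sides of 0.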

How the data were processed

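Per the study's methods, RNA was isolated with the RNeasy kit, Novogene made and sequenced the libraries, and transcripts were quantified by the authors using salmon (Illumina DRAGEN). The deposited values are estimated counts of reads per transcript without normalization, and TPM, which the authors' quantification made from these counts and effective lengths. The processing notes of the submitters name GRCh38.p13 and hg38. For the salmon version, annotation release and strand setting, the sources used here give nothing.

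Of 232117 transcripts, 229321 (98.8%) matched GENCODE release 44, which held 99.16% of the reads or more in each library. Estimated counts were summed per gene and rounded. edgeR 4.0.16 in R 4.3.3 (TMM factors 0.934 to 1.053, filterByExpr, quasi-likelihood test) was fitted to all 16442 genes that passed, without covariates, with Benjamini-Hochberg adjusted p-values over all of them. Calls used an adjusted p under 0.05, and for all genes also a log2 fold change beyond 2. The fit was tested on simulated data. The p-values cover the spread between 3 libraries per label.

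The members and lists were chosen with earlier results of these data known. Named were all 7 members, the genes of the 6 pathway lists that passed the filter, the 5 nearest genes and protein-coding genes within 1 Mb; markers, KLK3, TMPRSS2, FKBP5 and listed genes below the filter were also named after their values were seen, and some listed genes and motifs are not reported here. Floors (3 reads pooled over a label, which is 0.0464 CPM with DMSO, 0.0531 CPM with MI-503) and exact binomial intervals on ratios cover counting error only. Uniqueness was counted on GENCODE sequences, in which UGT2B17 is longer (2481 bases) than in the deposited files (2077 bases). Alternatives were other scalings and filters, DESeq2 1.42.0, a replicate block, other ways of counting, and each library left out in turn.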

Additional observations from a re-analysis of the deposited data

How the results depend on the processing

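The log2 ratio of the summed members was -11.72 and stayed between -11.82 and -11.59 under other scalings, filters, counting rules, TPM, DESeq2 size factors and with the pseudogenes added, and between -12.24 and -11.27 with each library left out. Among the pathway genes 18 were higher and 18 lower, against 16 to 19 and 18 to 20 with each library left out and 15 to 20 and 17 to 21 under the other alternatives. Replicate numbers did not pair the libraries (correlation of deviations -0.06, 0.13 and -0.08), and only replicate 2 was positive. With the replicate block 17 pathway genes were higher and 19 lower, and 2068 and 1925 of all genes passed both thresholds, against 2065 and 1930. The counts over all genes were 2868 and 2827 without a filter and 2499 and 2408 in DESeq2.

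The genes whose sign changed had not passed the test, and the cause was not tested. HSD17B10 went to -0.05 with upper-quartile scaling, and lay between -0.09 and 0.24 with libraries left out. NFE2L2 went to -0.07 with upper-quartile scaling, -0.01 without mitochondrial genes and -0.00 with counts rebuilt from TPM, and lay between -0.07 and 0.15 with libraries left out. FOXA1 went to 0.04 without a filter, 0.03 with protein-coding transcripts and 0.00 in DESeq2, and lay between -0.14 and 0.20. PPARA went to -0.02 with counts rebuilt from TPM, and PGM1 lay between -0.40 and 0.02. Calls were also gained. POU2F1 (adjusted p = 0.0539 in edgeR) passed with RLE (0.0482) and upper-quartile scaling (0.0218), no filter (0.0393), the 1 CPM filter (0.0492), the block (0.0211), mitochondrial genes left out (0.0397), DESeq2 (0.0476), and without MI-503 replicate 1 (0.0442) or DMSO replicate 3 (0.0219). SULT1A1 (0.0726) passed without a filter (0.0384), with protein-coding transcripts (0.00612), counts rebuilt from TPM (0.0115) and without DMSO replicate 3 (0.0125). PPARA (0.205) passed without a filter (0.0155) and without MI-503 replicate 1 (0.0413). Ratios of members with 0 or 1 read in a label are limited by depth: without the library that holds its only read, the bound on the log2 fold was -10.57 for UGT2B15 and -7.27 for UGT2B10.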

Other observations

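The following genes were chosen after their values were seen, from the 20 protein-coding genes with the highest ratios between the 3 libraries labelled DMSO, a list that also holds UGT2B28 and UGT2B11. ID1 and ID3, inhibitors of basic helix-loop-helix factors, were at 2.44, 6.15 and 25.2 CPM and at 2.67, 7.89 and 25.3 CPM in replicates 1, 2 and 3, highest and lowest in the same libraries as UGT2B11 (30.0, 102 and 266 CPM). LAMA1 and COL7A1, genes of the extracellular matrix, were at 3.90, 6.78 and 32.0 CPM and at 9.05, 16.6 and 63.0 CPM. In the other direction, NIBAN1 was at 30.0, 12.2 and 2.51 CPM, the cystine transporter SLC7A11 at 423, 270 and 74.5 CPM, and CHAC1, which degrades glutathione, at 33.6, 39.4 and 7.29 CPM. MT-ND5 and MT-CYB, mitochondrial transcripts, were lowest in replicate 2, at 385 and 757 CPM. Their relation to the UGT2B genes was not tested.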
